A study of Homo sapiens with 12 samples.

Results

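The enzymes that write and erase histone methylation, together with the histone deacetylases, were followed in an osteosarcoma cell line given NXP800. They were 65 genes chosen by symbol, out of 43236 gene symbols counted: the KMT2, KMT5, SETD, SETDB, SUV39H, EHMT, EZH, NSD and DOT1L methyltransferases, the KDM demethylases, the HDAC deacetylases and the sirtuins. The choice was made with earlier results of these data known. RNA sequencing had been carried out on HOS-MNNG cells (MNNG/HOS), a human osteosarcoma line, exposed for 6 h or 24 h to NXP800 (300 nM) or to its solvent DMSO, and each of the 4 conditions had 3 libraries. NXP800 is an oral small molecule that the study examined as an activator of GCN2, a kinase of the integrated stress response. Each treated group had DMSO libraries of its own time as control. All libraries came from a single cell line, and the labels do not say whether replicates were separate cultures, so a p-value measures the spread between these libraries, which may be partly technical.

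Histone methylation is laid down on lysines of the histone tails by SET-domain enzymes (and by DOT1L, which has no SET domain), and it is taken off by the flavin-dependent KDM1 enzymes and the iron- and oxoglutarate-dependent JmjC enzymes. The effect depends on which lysine is methylated: methylated H3K4, H3K36 and H3K79 lie mostly on active promoters, enhancers and gene bodies, whereas methylated H3K9, H3K27 and H4K20 are mostly marks of silent or compacted chromatin. Deacetylases remove acetyl groups from histones and from many other proteins. Class I, II and IV enzymes (HDACs) use zinc, and the sirtuins use NAD+. Most of these enzymes work inside multi-subunit complexes, so a transcript level says nothing direct about enzyme activity or about the mark on chromatin, neither of which was measured here.

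Depth was even, at 30810614 to 31947656 counts on genes per library, and levels are given as CPM, read counts relative to the TMM-scaled library size. Of the lineage markers, RUNX2, COL1A1, SPARC and SPP1 were detected and ALPL, COL1A2 and BGLAP were near 0, with a mean of at most 0.302 CPM in any condition. The detected ones moved with treatment: RUNX2 rose (log2 0.71 at 6 h and 0.36 at 24 h), while COL1A1 (-0.50 and -0.76) and SPARC (-0.79 and -2.02) fell at both times and SPP1 fell at 24 h (-1.29, and -0.01 at 6 h). Their part in the results below was not tested. Markers of other cell types (PTPRC, CD3E, EPCAM, CDH1, PECAM1, ALB) summed to 6.21 to 10.6 CPM, nearly all of it EPCAM (log2 fold change 0.81 at 24 h, adjusted p = 4.85e-06). PECAM1, at means of 0.288 to 0.697 CPM, was lower at 6 h (-1.17, adjusted p = 0.0157, and -0.56 at 24 h), and PTPRC, CD3E, CDH1 and ALB each had a mean of at most 0.0869 CPM. A list of 20 proliferation genes fell with treatment, from summed levels of 5044 to 5093 CPM in DMSO to 3928 to 4085 CPM at 6 h, and from 5270 to 5495 CPM to 2365 to 2611 CPM at 24 h. The part of fewer dividing cells in the results below was not tested, and in bulk RNA fewer cells of a kind and less RNA per cell cannot be told apart. Reads on no annotated gene made up 6.66 to 8.14% of the 6 h libraries and 2.73 to 3.67% of the 24 h libraries, so time and library set cannot be told apart, and each response below is read within its own time.

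Of the 65 genes, 64 passed the filter on low counts (KDM5D did not) among 15979 tested. After 6 h of NXP800, 21 were higher, 15 were lower and 28 did not pass the test, an adjusted p below 0.05 in edgeR's quasi-likelihood test. This is 56.2% called, next to 52.8% of all genes tested. After 24 h, 22 were higher and 16 lower, or 59.4% called, next to 56.0% of all genes. The family as a whole was therefore called about as often as any gene in these cells, and the middle member moved by a log2 fold change of -0.02 (6 h) or 0.05 (24 h), against medians of -0.05 and -0.0033 over all genes. Large changes were few. At 6 h, 4 members rose by over 2-fold (KDM7A, KDM6B, HDAC9 and KDM4A), where 6.02% of all genes did, and 2 fell by over 2-fold (EHMT2 and HDAC7), where 5.23% of all genes did. At 24 h KDM7A and KDM6B were over 2-fold higher, where 6.73% of all genes were, and none of the members was over 2-fold lower, where 7.32% of all genes were. Genes near the 2-fold line moved over it with single libraries or another scaling: EHMT2 at 24 h reached -1.10 without NXP800 replicate 3, HDAC7 at 6 h stood at -0.98 without NXP800 replicate 2, and KDM5B at 6 h and HDAC9 at 24 h (with KDM5B under library size only) passed it in some alternatives, so that 4 or 5 members were over 2-fold higher at 6 h and 2 to 4 at 24 h. Treated and control libraries did not overlap for 21 members higher and 15 lower at 6 h (29.3% and 32.7% of all genes), and for 24 higher and 17 lower at 24 h (29.0% and 30.1%).

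The classes of enzyme did not share a direction. Among the 17 tested demethylases 9 were higher and 3 lower at 6 h, and 9 were higher and 1 lower at 24 h, where 25% of all genes were higher and 27.8% lower at 6 h, and 27.5% and 28.6% at 24 h. The demethylases had medians of 0.27 (6 h) and 0.36 (24 h) on the log2 scale. Among the 29 methyltransferases and SETD proteins 6 were higher and 5 lower at 6 h, and 7 were higher and 10 lower at 24 h, with medians of -0.02 and -0.05. The 11 HDACs had 3 higher and 5 lower at 6 h, and 3 of each at 24 h. With the block the demethylases lower came to 5 at 6 h and 2 at 24 h (also 2 without DMSO 24 h replicate 3), and the HDACs lower at 24 h to 5. The HDACs higher at 6 h came to 1 without DMSO replicate 2 or 3 or NXP800 replicate 1 of that time, and the methyltransferases lower at 24 h to 5 with library size only. Of the 7 sirtuins, 3 were higher and 2 lower at both times. No member was called in opposite directions at the 2 times, as 2.12% of all genes were. With the replicate block 2 members were, KDM1B (-0.18 at 6 h and 0.36 at 24 h) and KMT5A (0.25 and -0.16), where 4.47% of all genes were. Higher at both times were 14 members, where 16.5% of all genes were, and lower at both were 10, where 18.5% of all genes were. With the replicate number as a block, the calls came to 22 higher and 17 lower at 6 h and 29 higher and 20 lower at 24 h. With library size as the only scaling, which moved the median of all genes at 24 h to 0.086, the 24 h calls were 29 higher and 11 lower.

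**Figure D1:**
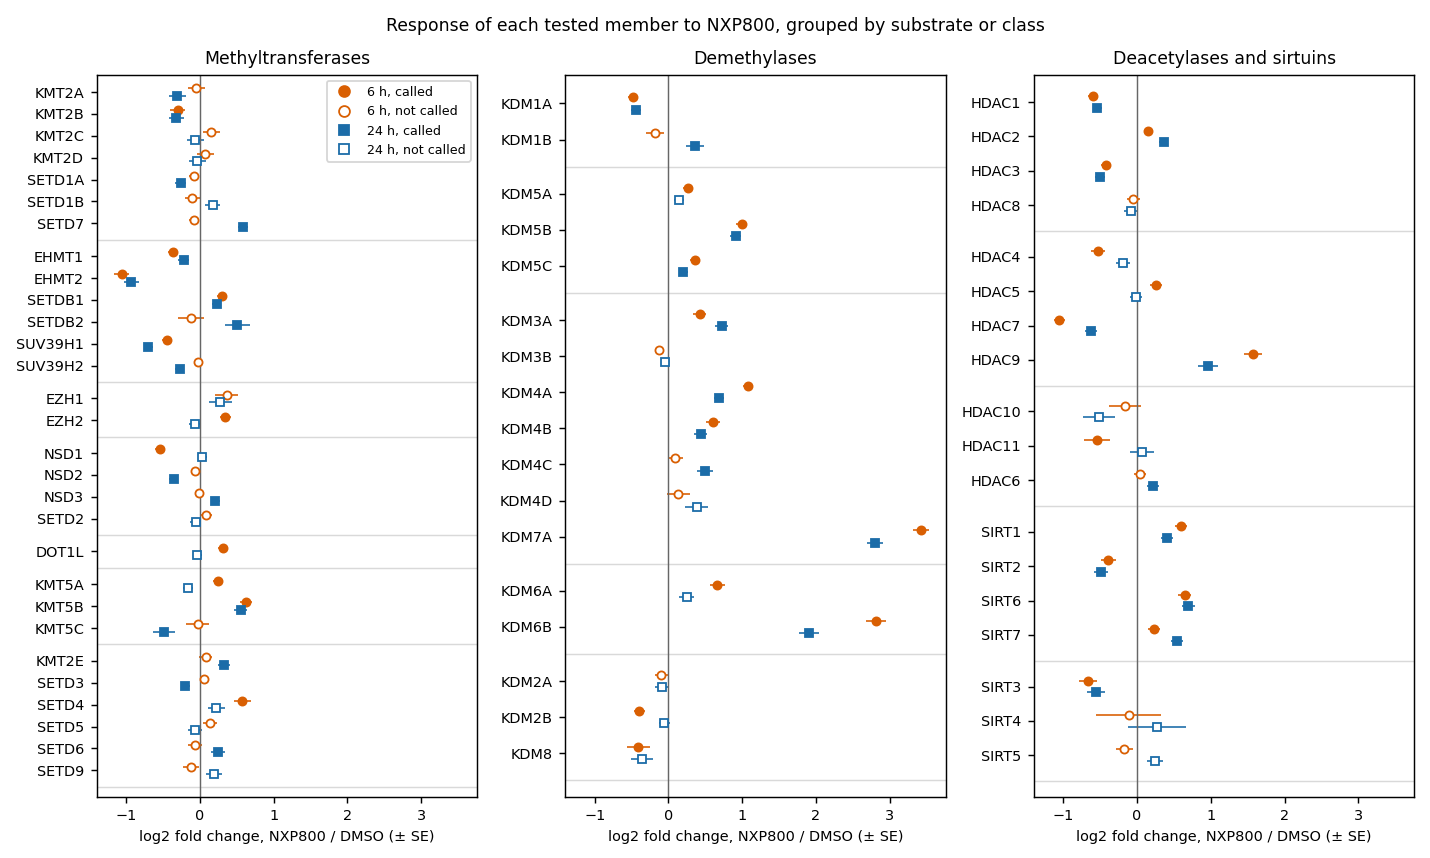
Log2 fold change (NXP800 over DMSO, x axis) of each of the 64 tested members at 6 h (circles) and 24 h (squares), with the standard error as a bar and filled symbols for an adjusted p below 0.05. Grey lines separate substrate groups or classes; KDM7A (3.42 and 2.80) and KDM6B (2.81 and 1.91) stand far to the right, and EHMT2 (-1.06 and -0.93) lies farthest to the left.

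Levels can be compared between genes only per length of transcript. On that scale, CPM per kilobase of the MANE transcript, the median member stood at 7.14 in DMSO at 6 h, and the members ran from 0.293 to 62.3. HDAC1 was the highest at 62.3, followed by SETD3 at 40.6, KDM1A at 37.9, EZH2 at 30.1 and HDAC3 at 27.4. The order depends on the MANE lengths (2118 bases for HDAC1), and the transcripts in use were not measured. KDM7A, at 0.860, stood near the bottom of that order in DMSO, below KDM8 (1.38) and EZH1 (1.45) and above SETDB2 (0.311) and SIRT4 (0.293), the last 2 of the 64. The gene with the largest rise was thus, per kilobase, among the least expressed members in DMSO at 6 h. In CPM the KDM7A mean there, 7.93, was above those of EZH1 (6.74) and KDM8 (3.35).

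The 2 largest rises belonged to demethylases of repressive marks. KDM7A encodes a JmjC demethylase of H3K9 and H3K27. In DMSO at 6 h its 3 libraries held 8.11, 7.85 and 7.84 CPM and after 6 h of NXP800 they held 90.5, 78.9 and 85 CPM. At 24 h the DMSO libraries held 8.06, 5.95 and 7.14 CPM and the treated ones 48.3, 55.1 and 43.6 CPM. All treated libraries were far above all controls at both times. The rise was 10.7-fold at 6 h (log2 3.42 ± 0.108 SE, adjusted p = 3.04e-12) and 6.94-fold at 24 h (2.80 ± 0.109, adjusted p = 2.18e-11).

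KDM6B, also called JMJD3, removes the H3K27 methylation laid down by EZH2 and is known as an inducible gene in stress and inflammation. Its DMSO libraries held 20.3, 15.7 and 21.5 CPM at 6 h, against 158, 131 and 115 CPM with NXP800. At 24 h, 24.4, 19.6 and 19.7 CPM stood against 75.7, 92.0 and 72.0 CPM. Again the groups were well apart. The rise was 7.02-fold at 6 h (log2 2.81 ± 0.138, adjusted p = 2.45e-10) and 3.76-fold at 24 h (1.91 ± 0.136, adjusted p = 7.85e-09). Its X-linked relative KDM6A, or UTX, changed much less: it went from 13.9, 14.1 and 15.6 CPM to 22.6, 25 and 21.2 CPM at 6 h, a rise of 1.58-fold (log2 0.66, adjusted p = 3.82e-05). At 24 h KDM6A stood at 12.8 to 15.0 CPM in DMSO and at 14.7 to 18.3 CPM with NXP800, groups that overlapped (log2 0.24, adjusted p = 0.0503, and 0.0118 with the replicate block).

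The 250 bases before the RefSeq start sites of these 2 genes and of EHMT2, the member with the largest fall, are shown because the genes mark the ends of the family's response. Each is given 5′ to 3′ on the strand of its gene (GRCh38.p14), at chr7:140176984-140177233 for KDM7A (minus strand), chr17:7833967-7834216 for KDM6B (plus strand) and chr6:31897699-31897948 for EHMT2 (minus strand). Capitals mark the GC box GGGCGG, on either strand, and the E-box CACGTG.
KDM7A: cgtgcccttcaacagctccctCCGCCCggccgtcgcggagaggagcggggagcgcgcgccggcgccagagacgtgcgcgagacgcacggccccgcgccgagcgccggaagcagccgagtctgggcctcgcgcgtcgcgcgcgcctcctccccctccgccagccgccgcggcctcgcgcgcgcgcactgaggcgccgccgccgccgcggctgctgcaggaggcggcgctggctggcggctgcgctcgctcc
KDM6B: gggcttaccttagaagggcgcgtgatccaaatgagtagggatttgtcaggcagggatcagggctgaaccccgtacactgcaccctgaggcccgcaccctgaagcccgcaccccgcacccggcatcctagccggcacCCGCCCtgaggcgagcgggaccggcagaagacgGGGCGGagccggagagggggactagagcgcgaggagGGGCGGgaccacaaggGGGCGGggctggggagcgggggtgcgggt
EHMT2: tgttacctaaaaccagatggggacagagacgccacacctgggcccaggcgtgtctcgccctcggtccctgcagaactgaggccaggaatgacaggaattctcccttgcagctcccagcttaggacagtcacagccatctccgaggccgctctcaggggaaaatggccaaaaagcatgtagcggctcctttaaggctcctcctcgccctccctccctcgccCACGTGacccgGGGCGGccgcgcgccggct
The KDM7A stretch was 81.6% G and C with 50 CG pairs and 1 GC box. The KDM6B stretch was 70.4% G and C with 21 CG pairs and 4 GC boxes, and the EHMT2 stretch 63.2% with 16 CG pairs, 1 GC box and 1 E-box. None of the 3 held a match to the C/EBP-ATF response element TGATGNAA, the element that ATF4 and C/EBP proteins bind in stress-response genes.

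The same search was run on the RefSeq windows from 250 bases before to 50 after the start, which could be matched for 60 of the 65 members. The element TGATGNAA, on either strand, was in 0 of the 60, against 3.67% of all 27305 promoters and 1.86% of the promoters of tested genes. These letters alone were searched in this window alone. At so low a share few matches would fall among 60 promoters, so 0 does not set the members apart from other genes. The E-box was in 9 of 60 (15.0%, against 7.43% of all and 9.90% of the promoters of tested genes), and the GC box in 43 of 60 (71.7%, against 44.6% of all and 68.5% of the promoters of tested genes). An E2F-type sequence, TTTNNCGC, was in 6 of 60 (10%, against 6.90% of all and 10.2% of tested genes). The E-box was in 4 of 18 members higher and 2 of 15 lower at 6 h, and in 5 of 20 higher and 1 of 16 lower at 24 h, with 3 of 26 and 3 of 23 among those not called. These matches are a description of the sequence and no binding was measured.

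KDM4 and KDM3 enzymes, which act mainly on H3K9 (KDM4A to KDM4C also on H3K36), were called only upward in the fit without a block (KDM3B was lower at 6 h with it and without DMSO replicate 2), and with KDM7A the 7 H3K9 demethylases had 4 higher at 6 h and 5 higher at 24 h. KDM4A went from 48.6, 46.0 and 47.1 CPM to 104, 97.4 and 97.1 CPM at 6 h, and from 72.8, 61.4 and 63.0 CPM to 111, 102 and 105 CPM at 24 h. Its treated libraries were above its controls at both times, with folds of 2.10 (log2 1.07 ± 0.0690, adjusted p = 4.54e-09) and 1.61 (0.69 ± 0.0682, adjusted p = 3.59e-07). In the GENCODE annotation 48.8% of its exon bases overlap other genes, among them the antisense KDM4A-AS1, which stood at means of 0.852 to 2.80 CPM. Since the strand setting of the counting is not given in the sources used here, reads of such pairs cannot be assigned with certainty.

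KDM4B rose from 16.2 to 17.9 CPM in DMSO to 23.7 to 27.5 CPM at 6 h (log2 0.60, adjusted p = 3.57e-05) and from 23.9 to 27.4 CPM to 31.7 to 38.4 CPM at 24 h (0.44, adjusted p = 0.000474). KDM4C was not called at 6 h (log2 0.09) and rose at 24 h, from 9.03, 8.91 and 10.8 CPM to 12.3, 15.0 and 13.1 CPM (0.49, adjusted p = 0.000879). KDM3A, an H3K9 demethylase known for its induction by hypoxia, had very tight replicates: 10, 10.3 and 10.2 CPM in DMSO against 13.8, 13.7 and 13.4 CPM at 6 h. At 24 h it went from 13.9, 13.1 and 12.6 CPM to 24.0, 21.5 and 19.9 CPM. The groups were separate at both times, with log2 fold changes of 0.43 (adjusted p = 0.00072) and 0.72 (adjusted p = 2.75e-06). KDM3B, its paralogue, did not pass the test at either time (log2 -0.13 and -0.04), although at 6 h the fall of 0.13 reached an adjusted p of 0.0267 with the replicate block. KDM4D, at 2.54 to 4.62 CPM in all libraries, also missed the threshold without the block (log2 0.13 at 6 h and 0.38 at 24 h, with adjusted p = 0.0513 at 24 h and 0.0107 with the block).

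The H3K4 demethylases KDM5A, KDM5B and KDM5C were all higher at 6 h. KDM5B, or JARID1B, rose most: 32.0, 30.3 and 30.7 CPM in DMSO became 65.5, 59.2 and 59.9 CPM at 6 h, and 37.2, 32.1 and 39.1 CPM became 70.2, 68.1 and 65.6 CPM at 24 h. This was close to a doubling at each time, of 1.99-fold (log2 0.99 ± 0.0749, adjusted p = 2.53e-08) and 1.88-fold (0.91 ± 0.0745, adjusted p = 4.09e-08). KDM5C rose from 96.7 to 101 CPM to 121 to 129.8 CPM at 6 h (log2 0.35, adjusted p = 9.08e-05) and less at 24 h (0.20, adjusted p = 0.00746). KDM5A rose at 6 h (0.27, adjusted p = 0.00218) and had an adjusted p of 0.0689 at 24 h, or 0.0361 with the block (log2 0.14).

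**Figure D2:**
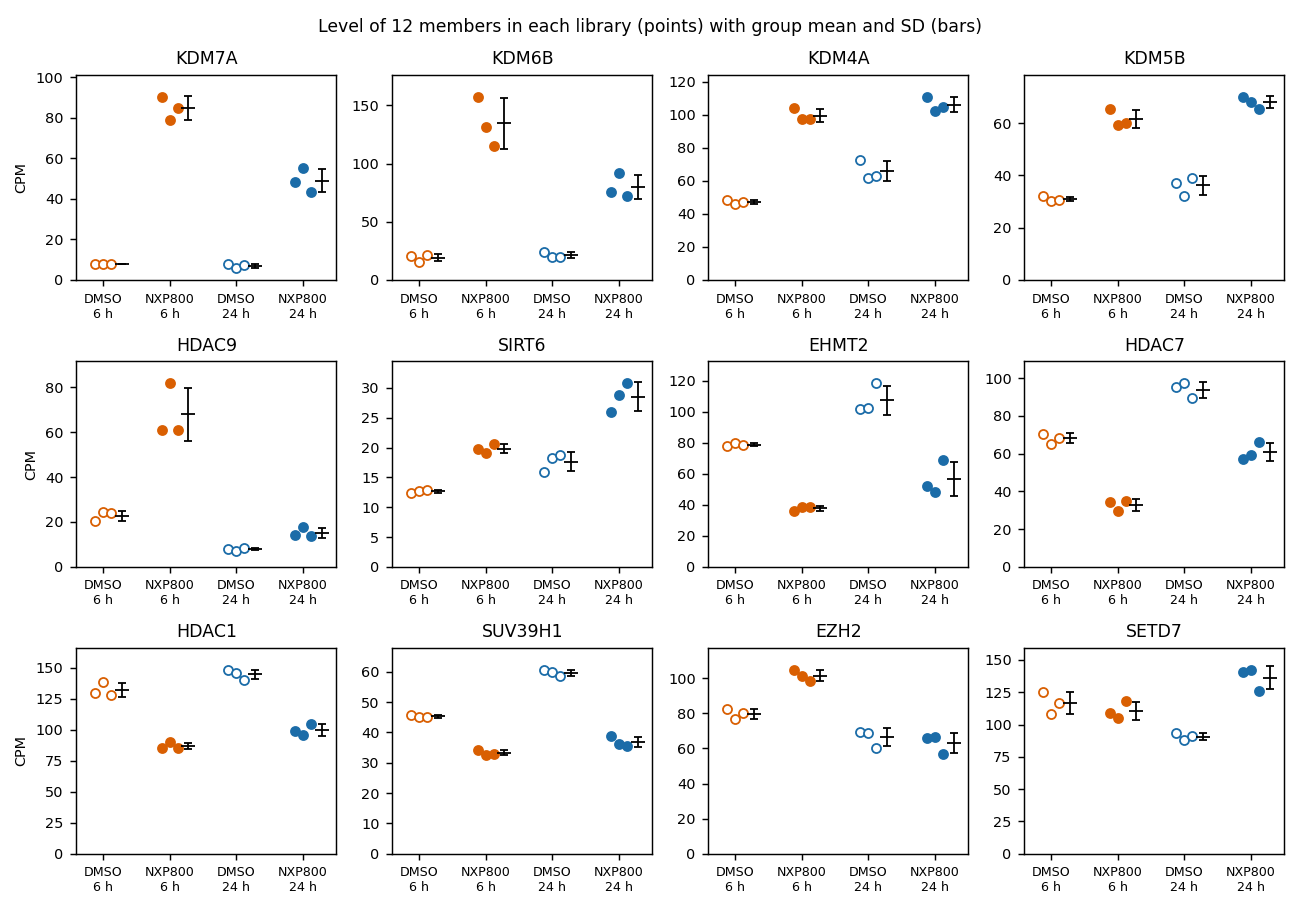
Level in CPM (y axis, from 0) of 12 members in each of the 12 libraries (points; open, DMSO; filled, NXP800), with the group mean and SD of 3 libraries as bars. KDM7A, KDM6B, KDM4A, KDM5B, HDAC9 and SIRT6 have their treated libraries above the controls at both times, EHMT2, HDAC7, HDAC1 and SUV39H1 below them, EZH2 only at 6 h above, and SETD7 only at 24 h above.

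Not every demethylase rose. KDM1A (LSD1), which takes methyl groups off H3K4 in the CoREST complex, fell at both times. It went from 123, 123 and 104 CPM to 83.3, 86.1 and 81.8 CPM at 6 h (1.40-fold lower, log2 -0.48 ± 0.0682, adjusted p = 2e-05), and from 131, 126 and 133 CPM to 93.7, 93.1 and 102 CPM at 24 h (1.35-fold lower, -0.43 ± 0.0681, adjusted p = 4.72e-05). Its relative KDM1B (LSD2) went the other way at 24 h, from 35, 29.6 and 39.0 CPM to 47.3, 38.0 and 47.9 CPM (log2 0.36, adjusted p = 0.0179). Those groups overlapped, and the call was lost without DMSO replicate 2, NXP800 replicate 1 or NXP800 replicate 3 of that time (adjusted p of 0.0645 to 0.10). At 6 h KDM1B had a log2 fold change of -0.18 (adjusted p = 0.228, and 0.0109 with the replicate block).

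The H3K36 demethylases were called only downward, and only at 6 h. KDM2B, a subunit of a Polycomb complex that binds unmethylated CpG islands, fell from 30.1, 28.1 and 29.1 CPM to 22.5, 20.3 and 23.6 CPM at 6 h (log2 -0.40, adjusted p = 0.000272). At 24 h, 30.0 to 32.3 CPM in DMSO and 29.3 to 30.9 CPM with NXP800 overlapped (-0.06, adjusted p = 0.513). KDM8, a JmjC protein at 2.30 to 4.10 CPM, fell at 6 h (log2 -0.41, adjusted p = 0.0338). That call was lost with DESeq2 (adjusted p = 0.0845), without the filter for low genes (0.0762) and without DMSO replicate 1 or 3 or NXP800 replicate 2 or 3 (0.0701 to 0.114). At 24 h KDM8 stood at log2 -0.36 (adjusted p = 0.056, and 0.0218 with the block). KDM2A was not called (log2 -0.10 and -0.09).

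Among the methyltransferases the H3K9 enzymes carried the largest falls, and all 6 of them were called at 24 h, 4 lower and 2 higher. EHMT2 (G9a), which with EHMT1 (GLP) makes most dimethylated H3K9 in euchromatin, stood at 77.8, 79.9 and 78.4 CPM in DMSO and at 36, 38.3 and 38.7 CPM after 6 h. At 24 h it went from 102, 102 and 118 CPM to 52.3, 48.1 and 68.7 CPM. No treated library reached the controls. The falls were 2.09-fold (log2 -1.06 ± 0.103, adjusted p = 3.71e-07) and 1.91-fold (-0.93 ± 0.101, adjusted p = 1.03e-06). EHMT2-AS1, an antisense gene that overlaps 8.11% of its exon bases, stood at means of 0.0866 to 1.5 CPM. EHMT1 fell less, from 87.9 to 102 CPM to 70.4 to 77.7 CPM at 6 h (log2 -0.36, adjusted p = 0.000389) and from 98.2 to 104 CPM to 80.3 to 92.2 CPM at 24 h (-0.22, adjusted p = 0.012). Its 24 h call was lost without NXP800 replicate 3 (adjusted p = 0.0571) and with library size as the only scaling (0.147).

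SUV39H1, which trimethylates H3K9 in heterochromatin, held 45.9, 45.0 and 45.2 CPM in DMSO and 34.2, 32.6 and 33.0 CPM after 6 h, then 60.5, 59.9 and 58.5 CPM against 38.7, 36 and 35.5 CPM at 24 h. The falls were 1.36-fold (log2 -0.45 ± 0.0602, adjusted p = 1.22e-05) and 1.62-fold (-0.70 ± 0.0599, adjusted p = 6.96e-08). Its paralogue SUV39H2 did not pass the test at 6 h (log2 -0.02, adjusted p = 0.755) and fell at 24 h, from 52.2, 49.0 and 54.3 CPM to 44.1, 41.9 and 42.4 CPM (-0.27, adjusted p = 0.00127). SETDB1, which silences retroelements with TRIM28, rose slightly at both times, from 84.8 to 86.0 CPM to 101 to 108 CPM at 6 h (log2 0.30, adjusted p = 0.000674) and by 0.23 at 24 h (adjusted p = 0.00464). SETDB2, at 1.56 to 2.7 CPM, rose only at 24 h (0.51, adjusted p = 0.018), a call lost without DMSO replicate 1 or 2 or NXP800 replicate 2 (0.0501 to 0.0585) and with DESeq2 (0.0511).

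The H3K27 enzymes changed little beside their demethylases. EZH2, the catalytic subunit of Polycomb repressive complex PRC2, rose at 6 h from 82.7, 76.7 and 80.0 CPM to 105, 101 and 98.4 CPM (1.27-fold, log2 0.34 ± 0.0723, adjusted p = 0.000802). At 24 h the DMSO libraries, at 69.5, 69.1 and 60.5 CPM, overlapped the treated ones, at 66.1, 66.6 and 56.7 CPM (-0.07 ± 0.0734, adjusted p = 0.425), and the sign of this small value changed with the scaling (0.02 with library size only) and without NXP800 replicate 3 (0.00025). EZH1 had few reads, at 5.99 to 11.9 CPM, and log2 fold changes of 0.36 and 0.28 that passed the test only with the replicate block (at 6 h an adjusted p of 0.0733 without and 0.00584 with it, then 0.153 and 0.0278).

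H3K4 methyltransferases of the COMPASS family moved little. KMT2B, of the MLL branch of the family, was lower at both times (log2 -0.30, adjusted p = 0.0219, and -0.32, adjusted p = 0.0128). KMT2A (MLL1), rearranged in leukaemias, was lower at 24 h (-0.31, adjusted p = 0.0319), from 233 to 261 CPM to 179 to 241 CPM. In KMT2A at 24 h and KMT2B at 6 h the groups overlapped. The KMT2B call at 6 h was lost without DMSO replicate 3 or NXP800 replicate 1 or 2 (adjusted p of 0.0533 to 0.122), and at 24 h without DMSO replicate 2 or NXP800 replicate 1 (0.0536 and 0.0661). The KMT2A call was lost without DMSO replicate 1 or 2 or NXP800 replicate 1 or 3 (0.0706 to 0.133). All 3 of these calls were also lost with library size as the only scaling (0.0552 to 0.164), and all 3 held with the replicate block (0.000252, 6.28e-05 and 0.000149). SETD1A fell at 24 h (log2 -0.26, adjusted p = 0.00435), from 72.7 to 83.0 CPM to 60.7 to 69.7 CPM. KMT2C, KMT2D and SETD1B passed the test at neither time, with log2 fold changes of -0.10 to 0.17, and with the block SETD1B was higher at 24 h (adjusted p = 0.0113).

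SETD7, which monomethylates H3K4 and many other proteins, had the clearest late rise. At 6 h its 125, 108 and 116 CPM in DMSO overlapped 109, 105 and 118 CPM with NXP800 (log2 -0.08, adjusted p = 0.371). At 24 h, 93.1, 87.7 and 91.3 CPM became 141, 142 and 126 CPM, a rise of 1.5-fold (0.59 ± 0.0704, adjusted p = 2.98e-06) with all treated libraries above the controls.

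The H3K36 methyltransferases each had a pattern of their own. NSD1, mutated in Sotos syndrome, fell at 6 h from 120.3, 107 and 115 CPM to 76.3, 76.9 and 81.4 CPM (1.46-fold, log2 -0.55 ± 0.0622, adjusted p = 2.14e-06). At 24 h its 169, 162 and 177 CPM in DMSO and 169, 171 and 181 CPM with NXP800 overlapped (0.03, adjusted p = 0.649). NSD2, known from the translocations of multiple myeloma, did the reverse: it was not called at 6 h (-0.07) and fell at 24 h from 243, 225 and 241 CPM to 181, 186 and 186 CPM (1.28-fold, -0.36 ± 0.0549, adjusted p = 3.91e-05). NSD3 rose slightly at 24 h (0.21, adjusted p = 0.00853), from 45.5 to 49.8 CPM to 52.9 to 57.8 CPM. SETD2, the main trimethylase of H3K36, passed the test at neither time (0.09 and -0.05).

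DOT1L, the H3K79 methyltransferase, rose at 6 h from 89.4, 83.3 and 89.9 CPM to 106, 114 and 105 CPM (log2 0.31 ± 0.0617, adjusted p = 0.000566) and had overlapping groups at 24 h (-0.03, adjusted p = 0.661). KMT5A (SET8), which monomethylates H4K20 in dividing cells, rose at 6 h from 76.5, 72.7 and 73.7 CPM to 92.3, 82.2 and 90.5 CPM (0.25, adjusted p = 0.00539). At 24 h KMT5A was at 62.5 to 66.0 CPM in DMSO and 52.9 to 62.0 CPM with NXP800 (-0.16, adjusted p = 0.0606, and 0.0107 with the block). These groups came out apart with a small gap. KMT5B, which adds further methyl groups to H4K20, rose at both times. It went from 99.6, 96.3 and 97.4 CPM to 156, 147 and 149.8 CPM at 6 h (1.54-fold, log2 0.63 ± 0.0830, adjusted p = 1.06e-05) and from 73.4, 61.7 and 67.4 CPM to 112, 99.3 and 85.6 CPM at 24 h (1.46-fold, 0.55 ± 0.0842, adjusted p = 3.74e-05). KMT5C, its paralogue at 3.55 to 7.67 CPM, fell at 24 h (-0.48, adjusted p = 0.0122). That call was lost without DMSO replicate 2 or NXP800 replicate 1 (0.0726 and 0.0518) and, narrowly, with library size only (0.0502).

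The remaining SET-domain proteins are not established histone methyltransferases, or have other main substrates. SETD4 rose at 6 h from 12.5, 14.7 and 13.7 CPM to 22.1, 19.8 and 19.0 CPM (log2 0.58, adjusted p = 0.00037), and at 24 h it stood at 0.22 (adjusted p = 0.11, and 0.0379 with the block). KMT2E, an MLL-like protein that binds methylated H3K4, rose at 24 h from 20.4 to 24.0 CPM to 25.6 to 28.5 CPM (0.33, adjusted p = 0.00308). SETD3, the histidine methyltransferase of actin, fell at 24 h from 110.2, 102 and 105 CPM to 95.2, 88.5 and 93.4 CPM (-0.20, adjusted p = 0.0101), a call lost without NXP800 replicate 2 (0.0738), with library size only (0.0948) and with no filter (0.0628). SETD6, which methylates the NF-kappaB subunit RELA, rose at 24 h (0.25, adjusted p = 0.0363), from 30.1 to 34.3 CPM to 34.7 to 41.9 CPM. That call was lost without DMSO replicate 1 or 3 or NXP800 replicate 1 or 2 (0.0575 to 0.129). Of the SETD6 exon bases 27.1% overlap other genes. CNOT1, whose gene overlaps SETD6, stood at means of 288 to 352 CPM, so the assignment of SETD6 reads is uncertain. SETD5 and SETD9 passed the test at neither time, with log2 fold changes of -0.12 to 0.19.

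In the class I deacetylases, the HDAC1 and HDAC2 pair that serves the SIN3, NuRD and CoREST complexes moved apart. HDAC1 fell from 129, 138 and 128 CPM to 85.5, 89.9 and 85.5 CPM at 6 h (1.52-fold, log2 -0.60 ± 0.0580, adjusted p = 3.57e-07), and from 148, 146 and 140.2 CPM to 99.1, 95.4 and 104 CPM at 24 h (1.45-fold, -0.54 ± 0.0579, adjusted p = 9.4e-07). HDAC2 stood at 220.3, 198 and 201 CPM in DMSO and at 236, 222 and 230.2 CPM with NXP800 at 6 h (log2 0.15 ± 0.0615, adjusted p = 0.0488). At 24 h it went from 184, 169 and 186 CPM to 234, 223 and 236 CPM (0.36 ± 0.0617, adjusted p = 0.00011). Its groups did not overlap at either time. The small rise at 6 h was lost without any library of that time other than DMSO replicate 1 (adjusted p of 0.0558 to 0.171) and with no filter on low counts (0.126), and held with the replicate block (0.007). HDAC3, the catalytic subunit of nuclear receptor corepressor complexes, fell from 51.6 to 55.0 CPM to 38.9 to 40.5 CPM at 6 h (-0.42, adjusted p = 8.3e-05) and from 54.8 to 65.8 CPM to 42.4 to 43.0 CPM at 24 h (-0.50, adjusted p = 1.15e-05). HDAC8, which deacetylates the cohesin subunit SMC3, passed the test at neither time (-0.05 and -0.09).

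The class IIa enzymes, which shuttle between cytoplasm and nucleus and repress MEF2 targets, were all called at 6 h, 2 in each direction. HDAC9 rose from 20.2, 24.3 and 23.8 CPM to 61.1, 81.7 and 61.0 CPM at 6 h (2.98-fold, log2 1.58 ± 0.12, adjusted p = 2.69e-08). At 24 h its DMSO level was lower, 7.76, 7.26 and 8.17 CPM, and the treated libraries held 14.1, 17.7 and 13.6 CPM (1.96-fold, 0.97 ± 0.135, adjusted p = 1.5e-05). HDAC7 moved the other way, from 70.6, 65.3 and 68.2 CPM to 34.2, 29.3 and 34.9 CPM at 6 h (2.07-fold lower, -1.05 ± 0.0773, adjusted p = 1.86e-08) and from 95.2, 97.2 and 89.2 CPM to 57.1, 59.4 and 66.2 CPM at 24 h (1.54-fold lower, -0.62 ± 0.0753, adjusted p = 3.17e-06). Both genes had separate groups at both times. HDAC4 fell at 6 h from 48.6, 41.1 and 41.2 CPM to 33.9, 27.2 and 29.6 CPM (-0.53, adjusted p = 0.000258) and had overlapping groups at 24 h (-0.19, adjusted p = 0.0969, and 0.0105 with the block). HDAC5 rose slightly at 6 h (0.25, adjusted p = 0.0176), a call lost without DMSO replicate 2 or 3 or NXP800 replicate 1 (0.0749 to 0.102), and stood at -0.01 at 24 h. Of the HDAC5 exon bases 24.0% overlap other genes, and the assignment of its reads is uncertain.

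Of the class IIb and IV enzymes, HDAC6, the deacetylase of tubulin, was called at 24 h only, from 19.2 to 23.1 CPM to 23.8 to 25.7 CPM (log2 0.22, adjusted p = 0.0308). The call was lost without DMSO replicate 1 or NXP800 replicate 3 (0.173 and 0.0709) and with only the 24 h libraries in the fit (0.058) or no filter on low counts (0.0582). HDAC11 was low, at 1.93 to 5.39 CPM, and fell at 6 h (-0.54, adjusted p = 0.0177), a call lost without DMSO replicate 2 or NXP800 replicate 1 (0.108 and 0.0679). HDAC10, a polyamine deacetylase, had an adjusted p of 0.0507 at 24 h (log2 -0.52), or 0.00418 with the block. Of its exon bases 73.6% overlap other genes, the highest share among the members, and the assignment of its reads is uncertain.

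The sirtuins of the nucleus and cytosol were called at both times, 3 up and 1 down. SIRT1, which deacetylates p53 and histones, rose from 38.5, 39.4 and 37.2 CPM to 59.5, 62.1 and 52.7 CPM at 6 h (1.52-fold, log2 0.60 ± 0.0805, adjusted p = 1.19e-05) and from 36, 31 and 37.8 CPM to 45.2, 48.8 and 45.3 CPM at 24 h (1.33-fold, 0.41 ± 0.0814, adjusted p = 0.000424). SIRT6, a deacetylase of H3K9 active in DNA repair, rose by about the same amount at both times, from 12.4, 12.7 and 12.9 CPM to 19.7, 19.1 and 20.6 CPM (1.56-fold, 0.65 ± 0.0889, adjusted p = 1.54e-05) and from 15.8, 18.3 and 18.7 CPM to 26.0, 28.8 and 30.8 CPM (1.62-fold, 0.69 ± 0.0867, adjusted p = 4.58e-06). For both genes every treated library was above every control of its time. SIRT7, a nucleolar deacetylase, rose from 27.3, 29.8 and 27.8 CPM to 43.9, 43.4 and 36.7 CPM at 24 h (0.55, adjusted p = 2.61e-05). Its smaller rise at 6 h (0.23, adjusted p = 0.0272) was lost without DMSO replicate 1 or 2 or NXP800 replicate 1 or 3 (0.0572 to 0.102).

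SIRT2, mainly cytosolic, fell from 16.5, 14.3 and 13.2 CPM to 11.2, 11.3 and 11.2 CPM at 6 h (log2 -0.39, adjusted p = 0.00337) and from 16.7, 18.7 and 16.5 CPM to 12.2, 11.5 and 13.2 CPM at 24 h (-0.49, adjusted p = 0.00046). SIRT3, the main mitochondrial deacetylase, fell from 9.79, 9.40 and 10.3 CPM to 5.71, 5.66 and 7.25 CPM (-0.66, adjusted p = 0.000385) and from 10.8, 10.4 and 8.76 CPM to 5.84, 7.05 and 7.43 CPM (-0.56, adjusted p = 0.00148). In both genes the groups were apart at both times. Of the other mitochondrial sirtuins, SIRT4 was nearly silent, at 0.0911 to 0.574 CPM, and SIRT5 did not pass the test (-0.17 and 0.24, the latter with adjusted p = 0.074, and 0.0357 with the block).

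The response at 24 h was compared with that at 6 h by an interaction contrast, which uses each time's own DMSO libraries. It was called for 18 of the 64 members (28.1%, against 25.8% of all genes tested), 6 with a higher and 12 with a lower value at 24 h (12% and 13.8% of all genes), and with library size only it was 13 and 6. No member differed by over 2-fold, as 3.14% (higher) and 3.54% (lower) of all genes did. The rises of KDM6B (difference of log2 fold changes -0.90 ± 0.188, adjusted p = 0.0024), KDM7A (-0.62 ± 0.150, adjusted p = 0.00638) and KDM4A (-0.38 ± 0.0965, adjusted p = 0.00823) were smaller at 24 h than at 6 h. The same held for HDAC9 (-0.61, adjusted p = 0.0209), whose call was lost without DMSO 6 h replicate 1, NXP800 6 h replicate 2 or DMSO 24 h replicate 3 (0.0503 to 0.0536), and with library size only (0.0551). The fall of HDAC7 was also smaller at 24 h (0.43, adjusted p = 0.00814). By contrast, KDM5B (-0.08), SIRT6 (0.05), EHMT2 (0.13), HDAC1 (0.06) and KDM1A (0.05) had differences that did not pass the test.

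Some responses with a called difference were called at 6 h and not at 24 h. EZH2 (difference -0.42 ± 0.103, adjusted p = 0.00743), DOT1L (-0.34, adjusted p = 0.00918) and KMT5A (-0.41, adjusted p = 0.00555) were higher only at 6 h, and NSD1 (0.58 ± 0.0872, adjusted p = 0.000164) and KDM2B (0.34, adjusted p = 0.0245) were lower only at 6 h. With the replicate block KMT5A was also called lower at 24 h (-0.16, adjusted p = 0.0107). The KDM2B difference was lost without DMSO 6 h replicate 1, NXP800 6 h replicate 2 or DMSO 24 h replicate 2 (0.0607 to 0.0743) and with no filter (0.0509), and that of DOT1L with library size only (0.0569). Others were called only at 24 h: the rise of SETD7 (0.67 ± 0.0993, adjusted p = 0.000155) and the fall of NSD2 (-0.29, adjusted p = 0.0113, and 0.0637 with no filter on low counts).

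A further 6 differences were called, but each was lost when any of 6 to 11 of the 12 libraries was left out. That of KDM6A (-0.42, adjusted p = 0.0406) was kept only without replicate 3 of DMSO or of NXP800 at 6 h, DMSO replicate 3 at 24 h or NXP800 replicate 2 at 24 h, and had adjusted p of 0.0563 to 0.108 without each of the other 8 libraries. That of KDM1B (0.54, adjusted p = 0.0286) was lost without 7 of the 12 libraries (0.0575 to 0.0827), namely DMSO replicates 1 and 2 and NXP800 replicates 1 and 3 at 6 h, and DMSO replicate 2 and NXP800 replicates 1 and 3 at 24 h. SETD3 (-0.25, adjusted p = 0.0352) lost its call without 6 of 12 (0.0561 to 0.0959), which were DMSO replicate 3 and NXP800 replicates 1 and 2 at 6 h, and DMSO replicates 1 and 3 and NXP800 replicate 2 at 24 h. SIRT7 (0.32, adjusted p = 0.049) kept it only without DMSO replicate 2 or NXP800 replicate 3 at 24 h (0.0519 to 0.129 without each other library), and lost it with DESeq2 size factors (0.0519). SUV39H1 (-0.25, adjusted p = 0.0381) kept it only without NXP800 replicate 1 at 24 h (0.0502 to 0.0932), and SUV39H2 (-0.25, adjusted p = 0.0437) only without NXP800 replicate 3 at 6 h, DMSO replicate 2 at 24 h or NXP800 replicate 1 at 24 h (0.0545 to 0.104). With no filter on low counts all 6 of these but KDM1B were lost as well (0.0521 to 0.225), and with library size only KDM6A, SETD3, SUV39H1 and SUV39H2 were (0.0852 to 0.125). With the replicate block all 18 were called, and the number rose to 17 higher and 17 lower.

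**Figure D3:**
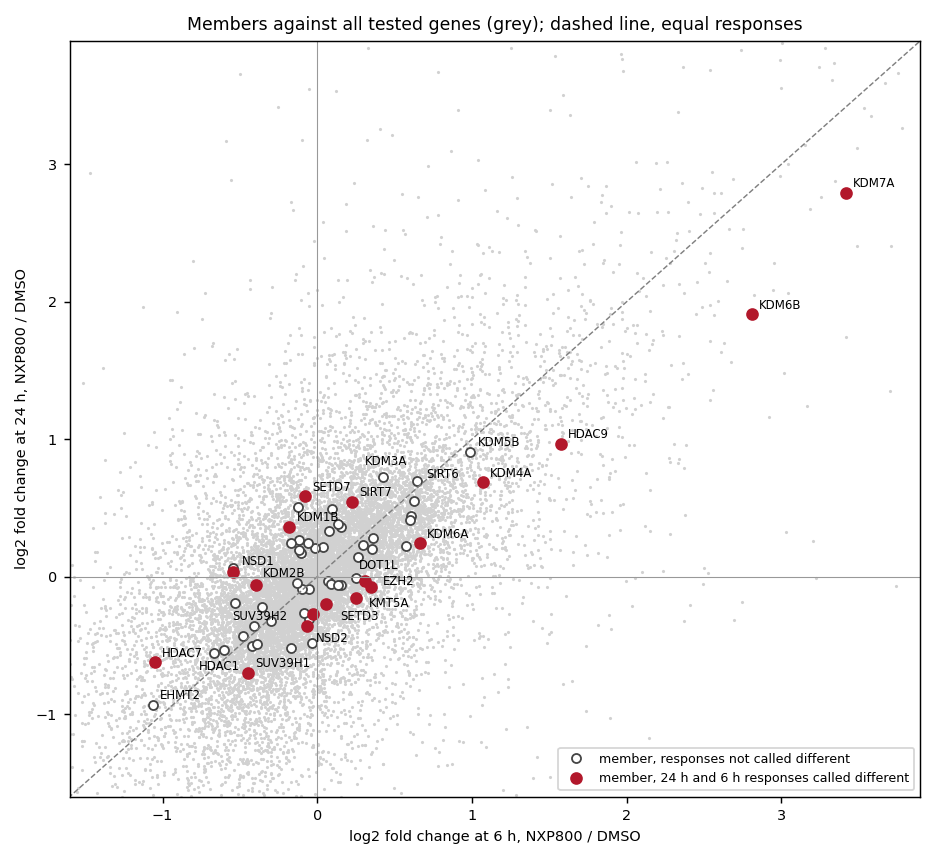
Log2 fold change at 6 h (x axis) against that at 24 h (y axis) of the 64 tested members over all tested genes in grey, of which those beyond the axis limits are not drawn. Filled points are the 18 members whose responses were called different: KDM7A, KDM6B, HDAC9 and KDM4A lie to the right of the dashed line of equal responses, SETD7 lies above it, and NSD1 sits at 0.03 at 24 h.

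For 6 of the 12 pairs of paralogues examined, the share of the first gene was taken per library from CPM per kilobase. HDAC1 made up 74.6% ± 1.63 (SD, n = 3) of HDAC1 and HDAC2 in DMSO and 63.5% ± 1.32 with NXP800 at 6 h, and 78.7% ± 1.11 and 66.5% ± 0.525 at 24 h. The size of this share rests on the MANE lengths, 2118 bases for HDAC1 and 9737 for HDAC2. In CPM HDAC1 was the lower of the pair in DMSO at 6 h (means of 132 and 207). Which transcripts the cells held was not measured, for this or any other pair. EHMT1 made up 48.4% ± 2.17 of EHMT1 and EHMT2 in DMSO and 60.5% ± 2.01 with NXP800 at 6 h, and 42.3% ± 2.63 and 54.6% ± 6.28 at 24 h. KDM6A went from 45.7% ± 3.52 of KDM6A and KDM6B to 16.0% ± 2.03 at 6 h and from 42.3% ± 3.24 to 18.7% ± 0.945 at 24 h. In these 3 pairs the shares of treated and control libraries did not overlap at either time. The shares of SUV39H1 (43.5 to 36.5%, then 56.3 to 48.9%) and KDM3A (14.7 to 20.2%, then 16.2 to 24.8%) also moved without overlap, while that of EZH1 overlapped at 6 h (4.61 and 4.66%) and at 24 h (6.38 and 7.99%). The other 6 pairs, not drawn, were KDM1A with KDM1B (82.8 to 79.6% at 6 h, 84.7 to 76.2% at 24 h) and KMT5B with KMT5C (89.9 to 93.4%, 80.3 to 89.2%), which did not overlap at either time, SETD1A with SETD1B and SETDB1 with SETDB2, which overlapped at 1 time, and KMT2A with KMT2B and KMT2C with KMT2D, which overlapped at both. The pairs in the plot of shares were chosen with these values known, and no test was run on the shares.

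**Figure D4:**
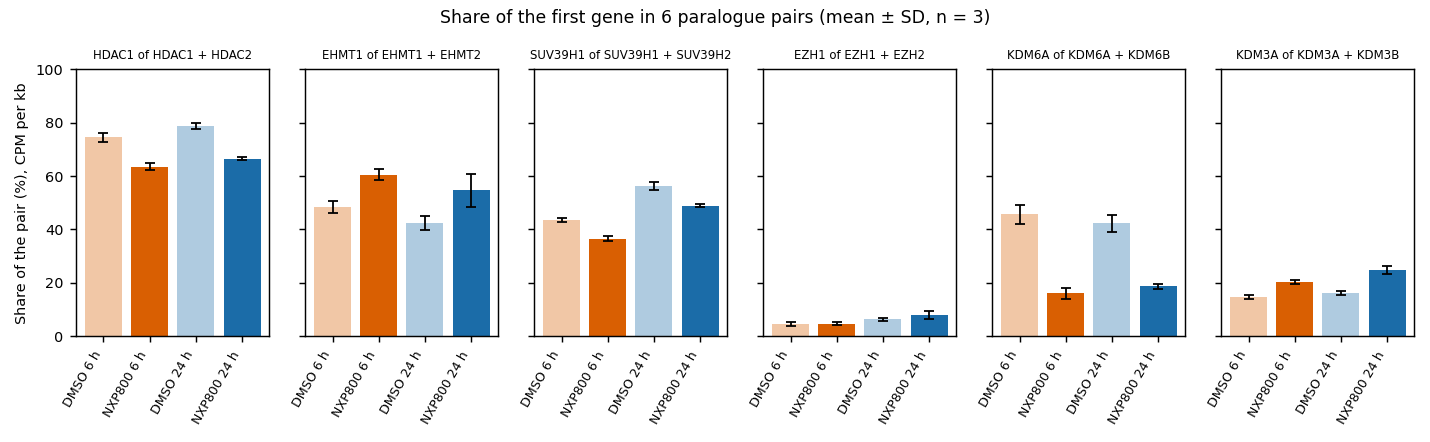
Share of the first gene (percent, y axis from 0 to 100) in each of 6 paralogue pairs, from CPM per kilobase, as the mean and SD of 3 libraries in each of the 4 conditions. The bar of HDAC1 drops from 74.6 to 63.5% at 6 h, that of KDM6A from 45.7 to 16.0%, and that of EHMT1 rises from 48.4 to 60.5%.

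Members called lower had a shorter median transcript than those called higher or not called. The median MANE transcript of the members called higher was 5604 bases at 6 h and 5764 at 24 h, against 3085 and 3072 bases for those called lower and 6097 and 5317 for those not called. Over all tested genes with a length the medians of the higher genes were 3957 and 3758 bases, and those of the lower genes 3208 and 3188. The part of length in the calls was not tested.

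The partners of these enzymes were followed as lists, whose counts are read against 25% higher and 27.8% lower of all tested genes at 6 h, and 27.5% and 28.6% at 24 h. These lists were drawn up with earlier results of these data known. Of 21 tested subunits of PRC2 and the COMPASS-family complexes, 3 were higher and 10 lower at 6 h, and 2 were higher and 14 lower at 24 h (median log2 fold change -0.15 and -0.26). In percent, 14.3 were higher and 47.6 lower at 6 h, then 9.52 and 66.7. Lower among them were RBBP4, a histone chaperone in PRC2 and several deacetylase complexes (-0.81 and -0.42, with adjusted p of 1.9e-08 and 1.51e-05), PAGR1, a partner of KMT2C and KMT2D (-0.97 and -0.45), HCFC1, a scaffold of the SET1 complexes (-0.63 and -0.38), and, at 24 h, PHF19, which guides PRC2 (-0.88, adjusted p = 1.72e-08). Higher were 3 PRC2 subunits. JARID2, a JmjC protein without demethylase activity that recruits and regulates PRC2, rose from a mean of 11 to 34.0 CPM at 6 h (log2 1.62, adjusted p = 1.2e-07) and from 10.7 to 21.2 CPM at 24 h (0.99, adjusted p = 2.32e-05). AEBP2 rose at both times (0.37 and 0.21) and MTF2 at 6 h (0.25). The subunits higher at 24 h came to 1 without DMSO replicate 2 or NXP800 replicate 1 or 2 of that time. Of 27 subunits of the deacetylase and demethylase corepressors, 6 were higher and 5 lower at 6 h and 4 were higher and 7 lower at 24 h, or 40.7% called at each time, next to 52.8% and 56.0% of all genes. With the replicate block those lower came to 9 and 11, and with library size only those higher at 24 h to 7. GATAD2B of the NuRD complex rose (0.72 and 0.41), as did RCOR1, the CoREST partner of KDM1A (0.48 and 0.33). The list as a whole had medians of -0.05 and -0.09, and its lowest log2 fold change was -0.53 at each time.

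The opposing acetyltransferases had 8 of 16 higher and 4 lower at 6 h, and 7 higher and 4 lower at 24 h (50.0% and 25%, then 43.8% and 25%). CREBBP rose (log2 0.66 and 0.31) with EP300 (0.33 and 0.25) and NCOA3 (0.56 and 0.87), all coactivators, whereas KAT2A (GCN5) fell (-0.84 and -0.77) and KAT2B (PCAF) fell from 18.9 to 13.3 CPM at 6 h (-0.51) and from 15.0 to 4.19 CPM at 24 h (-1.84, adjusted p = 1.65e-09). Of 8 tested protein arginine methyltransferases, 1 was higher (PRMT3, 0.38) and 3 were lower at 6 h (PRMT7 -0.65, PRMT2 -0.54 and CARM1 -0.32). At 24 h PRMT3 (0.38) and PRMT6 (0.18) were higher and PRMT1, the main enzyme of the family, was lower (-0.39). Those higher at 24 h came to 1 without DMSO replicate 1 or 3 or NXP800 replicate 1 of that time, and 2 were lower at 24 h with the block or without NXP800 replicate 3.

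Other lysine methyltransferases and JmjC proteins had 4 of 14 higher and 3 lower at 6 h, and 5 higher and 4 lower at 24 h. JMJD1C, a relative of KDM3A, rose from 47.2 to 151 CPM at 6 h (log2 1.68, adjusted p = 5.74e-09) and from 38.3 to 65.4 CPM at 24 h (0.77). HR, another relative of KDM3A and a corepressor, fell (-1.04 and -1.68), and JMJD6 fell at 6 h only (-0.95). Among 13 genes that supply cofactors, 3 were higher and 8 lower at 6 h, and 3 were higher and 7 lower at 24 h, so that 23.1% were higher at each time and 61.5% and 53.8% lower. Those lower at 6 h came to 5 without DMSO replicate 2. MAT2A, which makes the methyl donor S-adenosylmethionine, fell from 363 to 208 CPM at 6 h (-0.81, adjusted p = 2.52e-06) and from 312 to 225 CPM at 24 h (-0.47). NAMPT, the rate-limiting enzyme of NAD+ salvage, rose from 303 to 757 CPM (1.32, adjusted p = 3.54e-09) and from 220 to 468 CPM (1.09, adjusted p = 1.78e-08), and NNMT, which methylates nicotinamide, rose as well (1.56 and 0.72). ACLY and ACSS2, which make acetyl-CoA outside the mitochondria, were lower at both times (-0.44 and -0.74 for ACLY, -0.51 and -1.15 for ACSS2). The proliferation list, given because EZH2, SUV39H1 and KMT5A are known to be expressed with cell division, had 15 of 20 lower at 6 h and 19 of 20 lower at 24 h. Its medians were -0.33 and then -1.21 on the log2 scale, while EZH2 stood at 0.34 and -0.07, KMT5A at 0.25 and -0.16 and SUV39H1 at -0.45 and -0.70.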

How the data were processed

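Poly(A) RNA of 12 libraries (4 conditions of 3) was sequenced as strand-specific libraries. The authors deposited unnormalised counts for each gene, made with fastp 0.20.1, STAR 2.7.5a and HTSeq 0.12.4, per the submitters' processing notes, on hg38 with RefSeq genes of GRCh38.p14. Strand setting and counting mode are not given in the sources used here. Entries of the counter without a gene did not enter library sizes, and the share of reads on no gene is given with the results. The labels gave groups and replicate numbers.

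The test was edgeR 4.0.16 under R 4.3.3, with limma 3.58.1: filterByExpr, TMM, 1 model of the 4 conditions, quasi-likelihood test, Benjamini-Hochberg adjustment over 15979 genes, calls at an adjusted p below 0.05. Folds are on edgeR's fitted scale. On simulated counts of 15633 genes at 6 h, 145 of 200 genes changed by 2-fold were recovered, 132 of 132 at a mean of at least 3 CPM, with 13 other calls. The simulated libraries were drawn independently and few genes were changed, whereas 52.8% of the tested genes were called at 6 h. These recovery counts therefore do not carry over to the calls above, many of which were below 2-fold. The spread between replicates, with a biological coefficient of variation of 8.50%, limits the precision more than counting error does for all but low genes, and replicates differed by more than sampling noise.

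Same-numbered DMSO and NXP800 libraries deviated together (6 pairs, r of 0.159 to 0.329, against -0.268 to 0.0580 for 12 other pairs), so the replicate number was used as a block in an alternative fit. Other alternatives were DESeq2 1.42.0 size factors and Wald test, library size only, no filter, at least 10 counts per library, the 6 libraries of a time alone, each library left out, and an adjusted p below 0.01.

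The members and gene lists were chosen with earlier results of these data known. All members could be named, and some genes of the other lists are not reported here. Per-library values are printed for the members with the largest called changes of their class and for most of those called different between times, a choice of detail made after the values were seen, and other members are given by range. Promoters came from RefSeq (GRCh38.p14), and GENCODE v44 gave transcript lengths and exon overlaps, with gene models that may not be those counted.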

Additional observations from a re-analysis of the deposited data

Results flagged for a closer look

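The 18 members whose NXP800 responses differed between the times, by the interaction test (edgeR quasi-likelihood, adjusted p below 0.05), are given here as the 24 h minus the 6 h log2 fold change. Lower at 24 h than at 6 h were KDM6B by -0.90, KDM7A by -0.62, HDAC9 by -0.61, KDM6A by -0.42, EZH2 by -0.42, KMT5A by -0.41, KDM4A by -0.38, DOT1L by -0.34, NSD2 by -0.29, SETD3 by -0.25, SUV39H1 by -0.25 and SUV39H2 by -0.25. Higher at 24 h were SETD7 by 0.67, NSD1 by 0.58, KDM1B by 0.54, HDAC7 by 0.43, KDM2B by 0.34 and SIRT7 by 0.32. Of all tested genes, 25.8% passed the same test. The 6 h and 24 h libraries also differed in their share of reads on no gene, and its part in these differences was not tested.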

How the results depend on the processing

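At 6 h 30 of 36 member calls, at 24 h 29 of 38 and in the difference of the responses 8 of 18 were kept under every alternative run, and no call changed direction. The counts over all members called higher or lower at 6 h and at 24 h stayed within 1.5 times in every alternative. Counts of single classes and lists, which are small, moved further in the cases given beside them and at an adjusted p below 0.01. At that threshold methyltransferases lower at 24 h went from 10 to 5 and HDACs higher at 6 h from 3 to 1. Acetyltransferases higher and cofactor genes lower at 6 h each went from 8 to 5. H3K9 methyltransferases, subunits of PRC2 and the COMPASS family, and arginine methyltransferases higher at 24 h each went from 2 to 1. The counts in the difference did not stay within 1.5 times. Members higher in the difference, 6 in the reported fit, came to 13 with library size only, 17 with the replicate block and 3 at an adjusted p below 0.01, and ran from 4 to 7 with a library left out. Members lower in the difference, 12 in the reported fit, came to 6 with library size only, 7 with no filter on low counts and 6 at an adjusted p below 0.01, and ran from 7 (without NXP800 6 h replicate 2) to 11 with a library left out. Library size only moved the median log2 fold change of all genes at 24 h from -0.0033 to 0.086 and so favours higher values there, and no filter raised the genes tested from 15979 to 28071. The uncalled EZH2 value at 24 h, -0.07, became 0.018 with library size only and ran from -0.14 to 0.00025 with a library left out (the highest without NXP800 24 h replicate 3), and the cause was not tested. The replicate block ended none of the calls and added 30 (3 at 6 h, 11 at 24 h and 16 in the difference), given beside those genes or by count. Depth limited SIRT4 most, whose 6 h log2 fold change had an SE of 0.442.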
